A study of Mus musculus with 40 samples.

Results

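The genes described here carry glucose into the heart muscle cell, break it down to lactate or pyruvate, and store or release it as glycogen, together with Fbp2, the muscle form of fructose-1,6-bisphosphatase. The 33 members were taken by name from the pathways, and Fbp2 was included because it was known from these arrays to be higher on the high-fat diet, so its difference between the post-weaning diets is described below and not tested. Of the 33 members, 29 had a probe on the array, of 16593 genes with a probe in all, and each gene was read from the probe with the highest mean. Gpi1, Pfkfb1, Eno1 and Ldhb had none in the table. A probe was tested where it exceeded its array's median on at least 20 of the 40 arrays, which 25 members did. The other 4 were dim: Pfkfb3 exceeded the median on 15 arrays, Aldoc on 2, and Gbe1 and Pgm2 on 0. Pgk1 passed on 21 arrays only, so its values lie near the background.

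Hearts came from male C57BL/6J mice aged 9 weeks, in 4 groups of 10 separate animals, 1 array per heart. Dams ate a low-fat diet rich in carbohydrate (LF) or a high-fat diet (HF) from before mating until weaning, and their sons were weaned onto either diet and killed after a fast. Groups are written with the dam's diet first: LF_LF, LF_HF, HF_LF and HF_HF. The post-weaning diet effect is the high-fat minus the low-fat group within 1 dam diet, and the maternal effect is sons of HF-fed minus sons of LF-fed dams within 1 post-weaning diet. The labels give 6 cages to sons of each dam diet, and only 5 cages held sons of both post-weaning diets. Because the sons of a cage were divided between the diets at weaning, the label is taken here as the cage before weaning. The array values are intensities normalised by the authors, given here on their linear scale, with differences of group means on the log2 scale.

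The hearts were not alike in tissue content. The score (the mean log2 level relative to the median heart) of 7 tested heart muscle markers ran from -0.24 to 0.20. These were Myl2, Myl3, Myh6, Tnni3, Actc1, Ryr2 and Mybpc3, and the share of ventricle was not measured apart. The score of 7 atrial markers ran from -3.56 to 1.38. A score over 1.5 for liver, exocrine pancreas or skeletal muscle marked 11 hearts, 3 each in LF_LF, LF_HF and HF_LF and 2 in HF_HF. Adipocyte scores over 1 were seen in 4 LF_LF, 0 LF_HF, 3 HF_LF and 1 HF_HF hearts, over the 3 of 8 adipocyte markers that could be tested (Adipoq, Cidec and Cidea); Plin1, Lep, Retn and Ucp1 were too dim and Cfd had no probe. The arrays also fell into sets of 25 and 15 along the first component of the dim probes, each set holding hearts of all 4 groups, and the labels give no name to this split. In bulk RNA, fewer cells of a type and less RNA per cell cannot be told apart.

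The heart burns mostly fatty acids when it has them, and takes up glucose through GLUT4 (Slc2a4), which moves to the membrane on insulin, and GLUT1 (Slc2a1), which sits there at rest. Hexokinase traps glucose as its phosphate, and phosphofructokinase-1 then commits it to glycolysis. Fructose-2,6-bisphosphate, made by the heart-type bifunctional enzyme Pfkfb2, switches phosphofructokinase-1 on and fructose-1,6-bisphosphatase off. Fbp2 runs the same step in reverse, a step that muscle uses to rebuild glycogen from lactate.

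The 250 bases before the transcription start are shown for Fbp2, Pfkfb2 and Slc2a1, the members with the largest differences between the post-weaning diets (RefSeq, build GRCm38.p6, read 5′ to 3′ on the gene's strand). Capitals mark ACGTG, the core that hypoxia-inducible factors read, and CACGTG, the E-box of several basic helix-loop-helix factors, which contains ACGTG on both strands. The windows are chr13:62858401-62858650 on the minus strand for Fbp2, chr1:130715822-130716071 on the minus strand for Pfkfb2 (1 of 3 listed starts, the one with the most matches) and chr4:119108495-119108744 on the plus strand for Slc2a1.
Fbp2: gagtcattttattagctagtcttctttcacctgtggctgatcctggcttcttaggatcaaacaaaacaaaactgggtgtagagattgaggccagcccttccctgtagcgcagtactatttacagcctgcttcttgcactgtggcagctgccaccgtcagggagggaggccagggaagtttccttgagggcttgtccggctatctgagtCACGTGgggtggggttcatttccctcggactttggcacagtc
Pfkfb2: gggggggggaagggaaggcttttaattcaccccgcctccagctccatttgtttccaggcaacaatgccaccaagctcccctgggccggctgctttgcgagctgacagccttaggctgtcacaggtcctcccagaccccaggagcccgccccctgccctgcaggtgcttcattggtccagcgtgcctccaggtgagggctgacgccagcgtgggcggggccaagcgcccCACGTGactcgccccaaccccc
Slc2a1: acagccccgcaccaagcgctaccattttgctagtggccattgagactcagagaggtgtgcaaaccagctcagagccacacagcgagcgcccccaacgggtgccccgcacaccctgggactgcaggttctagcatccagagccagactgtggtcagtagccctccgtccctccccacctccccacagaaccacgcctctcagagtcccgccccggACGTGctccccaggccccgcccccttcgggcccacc

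The Fbp2 window held 1 CACGTG, which begins 42 bases before the start, and the Pfkfb2 window held 1 beginning 22 bases before it. Slc2a1 held ACGTG alone, 36 bases before the start. Over all 32851 listed windows of the same length, searched on both strands, 16.6% held ACGTG and 6.02% held CACGTG. Of the members on the array, 28 of 29 had a window (Slc2a4 had none), and 17 of these 28 genes held ACGTG in at least 1 window, against 18.5% of all 27025 genes. CACGTG was found in 6 of the 28 genes, against 6.86% of all genes. AGGTCA, a nuclear receptor half-site, was found in 4 of the 28 (15.8% of all genes), and its direct repeat with 1 base between the copies in 0 (0.0407%). A MEF2 site was found in 0 (0.167%) and the GC box GGGCGG in 16 (35.4%). These are letter matches, not shown to be sites, and the base composition of the windows was not matched.

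Fbp2 was higher in hearts of high-fat-fed sons of both kinds of dam, and no high-fat-fed heart overlapped with the low-fat-fed hearts of the same dam diet. In LF_LF its intensity was 525.6 in the lowest heart, 636 at the median and 861 in the highest, and in LF_HF it was 879, 996 and 1310. In HF_LF the lowest, median and highest hearts were at 388, 587 and 792, and in HF_HF at 846, 934 and 1164. The lowest high-fat-fed heart therefore stood just above the highest low-fat-fed one in each pair.

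The mean difference was 0.66 ± 0.094 log2 (SE, n = 10 and 10; 1.58-fold) in sons of LF-fed dams and 0.76 ± 0.0989 (1.69-fold) in sons of HF-fed dams. All 10 high-fat-fed hearts lay above all 10 low-fat-fed hearts for 0.0554% of the 12645 tested probes in the first pair and for 0.0633% in the second. Because the gene was included for this difference, it carries no test. The difference ran from 0.55 to 0.71 in the first pair and from 0.70 to 0.86 in the second over the alternative analyses, among them 0.62 and 0.76 in the cages that held both diets. Within groups Fbp2 was lower in hearts with more adipocyte signal (slope -0.086 ± 0.0313 log2 per unit of score, limma adjusted p = 0.0489, with 19.1% of all probes called), and without the hearts whose adipocyte score exceeded 1 the differences were 0.55 and 0.74.

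Pfkfb2, whose product makes and removes the activator of phosphofructokinase-1, rose with the high-fat diet in both pairs. The LF_LF hearts lay between 499 and 841 with a median of 569, and the LF_HF hearts between 667 and 892 with a median of 819. The HF_LF hearts lay between 517 and 775 with a median of 633, and the HF_HF hearts between 713 and 968 with a median of 788. All 10 high-fat-fed hearts exceeded the low-fat group's mean in each pair, but the groups overlapped.

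The rise of Pfkfb2 was 0.40 ± 0.0822 log2 (SE, n = 10 and 10; 1.32-fold, limma adjusted p = 0.0136) in sons of LF-fed dams and 0.34 ± 0.0709 (1.26-fold, limma adjusted p = 0.0176) in sons of HF-fed dams. A second, dimmer Pfkfb2 probe gave smaller values of 0.15 (limma adjusted p = 0.0862) and 0.18 (limma adjusted p = 0.139), neither past the threshold. Pfkfb2 was also lower in hearts with more adipocyte signal (slope -0.086 ± 0.023, limma adjusted p = 0.0072), and without the hearts over 1 its rise was 0.27 (limma adjusted p = 0.106) and 0.28 (limma adjusted p = 0.195). It also fell with the atrial score (slope -0.053 ± 0.0157, limma adjusted p = 0.0199, 12.6% of all probes called).

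Slc2a1, the resting glucose transporter, fell with the high-fat diet in both pairs by nearly the same amount. The LF_LF hearts lay between 271 and 392 with a median of 340.0, and the LF_HF hearts between 225 and 307 with a median of 269. The HF_LF hearts lay between 294 and 432 with a median of 358, and the HF_HF hearts between 223 and 351 with a median of 280.1. All 10 high-fat-fed hearts were below the low-fat group's mean in each pair, and the ranges overlapped.

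The fall of Slc2a1 was -0.34 ± 0.0685 log2 (SE, n = 10 and 10; 0.788-fold, limma adjusted p = 0.0116) in sons of LF-fed dams and -0.35 ± 0.0737 (0.786-fold, limma adjusted p = 0.0197) in sons of HF-fed dams. Its slope on the adipocyte score was -0.010 ± 0.0247 (limma adjusted p = 0.815) and that on the atrial score 0.0061 ± 0.0164 (limma adjusted p = 0.875), neither past the threshold. Without the hearts whose adipocyte score exceeded 1 it still passed in sons of LF-fed dams, but not in sons of HF-fed dams (-0.32, limma adjusted p = 0.185). Slc2a4, the insulin-responsive transporter, differed by -0.12 ± 0.0651 and -0.13 ± 0.0693 and passed in neither pair (limma adjusted p = 0.276 and 0.706). Slc2a4 fell within groups with the atrial score (slope -0.055 ± 0.0127, limma adjusted p = 0.00228).

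**Figure D1:**
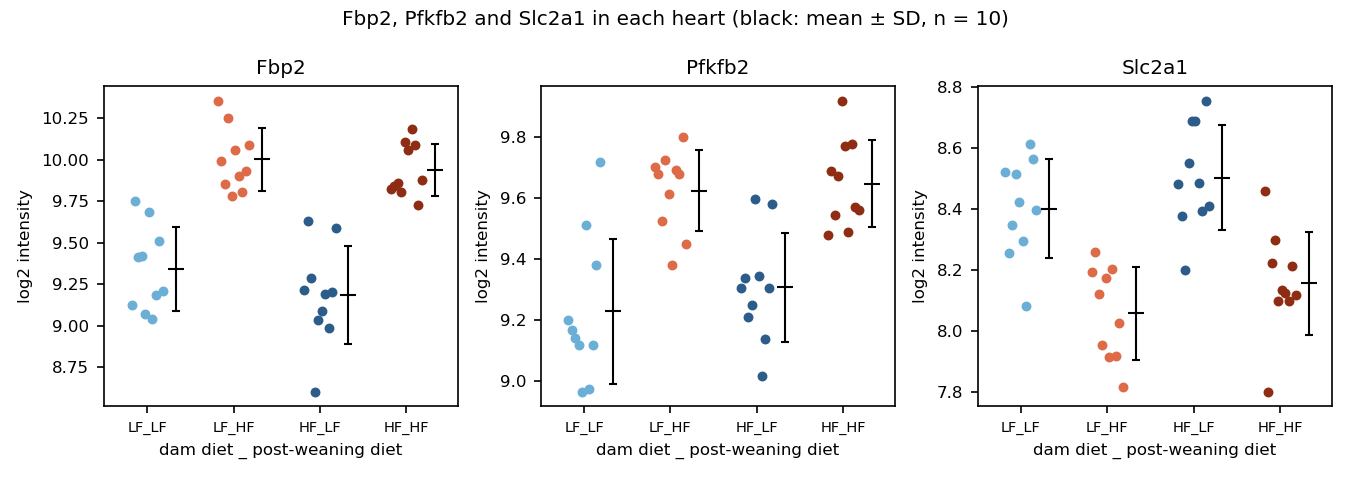
Log2 intensity of Fbp2, Pfkfb2 and Slc2a1 in each of the 40 hearts, by dam diet and post-weaning diet; each point is 1 heart and the black bar is the mean ± SD of 10. Fbp2 does not overlap between LF and HF hearts within a dam diet, Pfkfb2 rose and Slc2a1 fell with overlap.

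Pfkfb2 and Slc2a1 were thus 2 of the 24 tested members other than Fbp2 in each pair, 1 higher and 1 lower. In sons of LF-fed dams 2.72% of all 12645 probes passed (1.29% higher, 1.43% lower), and in sons of HF-fed dams 0.862% did (0.482% higher, 0.38% lower). The median difference of the 24 members was 0.0017 log2 in the first pair and 0.022 in the second, beside -0.0020 and -0.00031 over all probes. With the hearts of 1 group in 1 cage averaged to 1 value, neither gene passed in either pair. The limma adjusted p was 0.128 for Slc2a1 and 0.159 for Pfkfb2 in sons of LF-fed dams. In sons of HF-fed dams the limma adjusted p was 0.442 for Slc2a1 and 0.149 for Pfkfb2. After removing the 11 hearts that carried signal from other tissues, the differences were -0.33 and -0.39 for Slc2a1 and 0.39 and 0.32 for Pfkfb2, and none passed (limma adjusted p = 0.155, 0.143, 0.123 and 0.168).

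With both pairs averaged in 1 fit over the 40 hearts, 5 of the 24 members passed, beside 7.49% of all probes (3.53% higher, 3.96% lower). Pfkfb2 rose by 0.37 ± 0.0552 log2 (limma adjusted p = 1.55e-05) and Slc2a1 fell, by -0.34 ± 0.051 (limma adjusted p = 1.27e-05). Ugp2, which makes the UDP-glucose that glycogen synthase uses, rose by 0.26 ± 0.0587 (limma adjusted p = 0.00452), and Pgm1, which interconverts the glucose phosphates on either side of glycogen, by 0.21 ± 0.0618 (limma adjusted p = 0.033). Eno3, the muscle enolase, fell, with a difference of -0.19 ± 0.0553 (limma adjusted p = 0.0257). The second Pfkfb2 probe passed here too, at 0.17 ± 0.0361 (limma adjusted p = 0.00225). Slc2a4, at -0.12, did not pass, though it did on leaving out animal 101 (limma adjusted p = 0.0356). The median of the 24 members was 0.021, beside 0.00036 over all probes. On cage means Pfkfb2 and Slc2a1 alone still passed.

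None of Ugp2, Pgm1 and Eno3 passed in either pair alone. Ugp2 ran from 666 to 1012 in LF_LF with a median of 865, and from 809 to 1175 in LF_HF with a median of 994. In HF_LF it ran from 681 to 988 with a median of 842, and in HF_HF from 776 to 1161 with a median of 1013. The high-fat-fed hearts had the higher medians in both pairs, and the ranges overlapped. The differences of 0.25 ± 0.0864 and 0.26 ± 0.0757 were almost equal (limma adjusted p = 0.107 and 0.14). Ugp2 fell within groups with the adipocyte score (slope -0.10 ± 0.0236, limma adjusted p = 0.00261) and the atrial score (slope -0.068 ± 0.0155, limma adjusted p = 0.00227), and without the hearts with adipocyte scores over 1 the averaged difference was 0.15 (limma adjusted p = 0.145).

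Pgm1 ran from 1323 to 2281 in LF_LF with a median of 1837, and from 1858 to 2509 in LF_HF with a median of 2160.0. In HF_LF it ran from 1461 to 2165 with a median of 1833, and in HF_HF from 1427 to 2333 with a median of 1969. All 10 LF_HF hearts lay above the LF_LF mean, with a difference of 0.27 ± 0.0831 (limma adjusted p = 0.0748), whereas the difference in sons of HF-fed dams was 0.14 ± 0.0872 (limma adjusted p = 0.772). The averaged call was lost on leaving out any 1 of 8 hearts (animals 14, 101, 109, 122, 123, 126, 181 and 200), with limma adjusted p up to 0.0563. It was also lost under 10 of 18 alternative analyses.

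Eno3 ran from 6840 to 9962 in LF_LF with a median of 8212, and from 6006 to 9064 in LF_HF with a median of 7225. In HF_LF it ran from 6371 to 9882 with a median of 7876, and in HF_HF from 5847 to 8099 with a median of 6946. In each pair 9 of 10 high-fat-fed hearts were below the low-fat mean, with differences of -0.20 ± 0.0723 and -0.18 ± 0.0798 (limma adjusted p = 0.122 and 0.503). After removing the hearts that carried signal from other tissues, the averaged difference was -0.17 (limma adjusted p = 0.155).

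**Figure D2:**
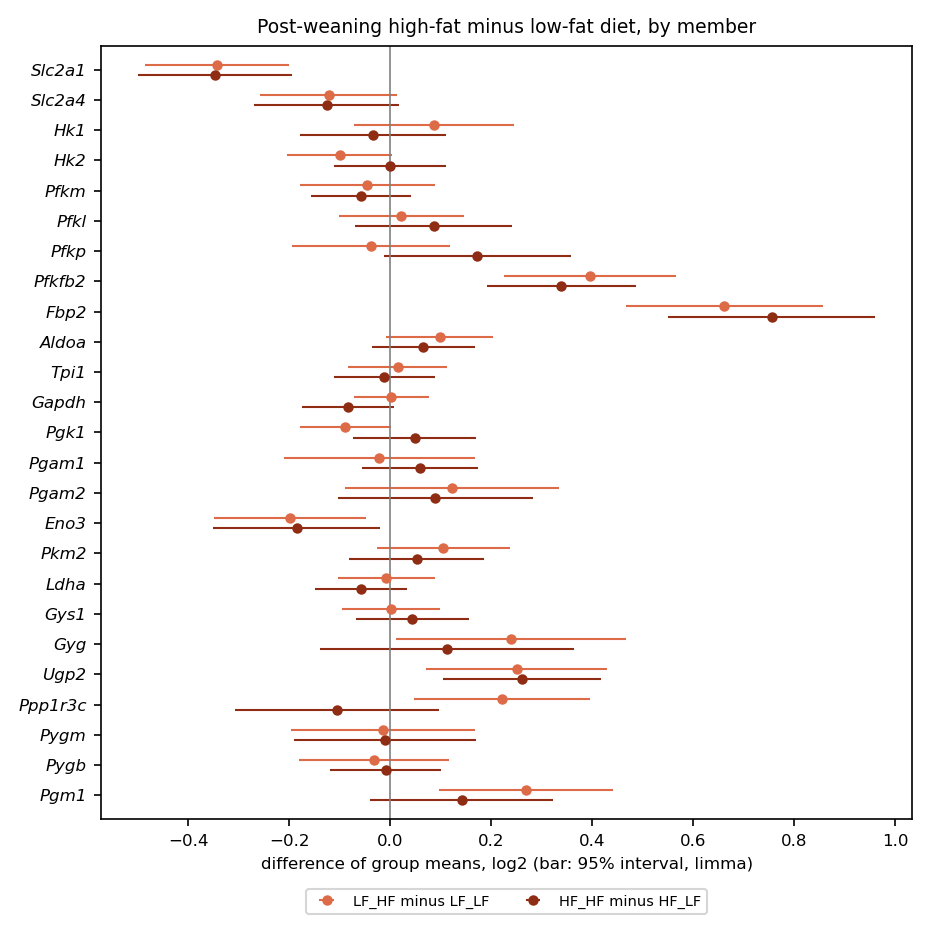
Difference between the post-weaning diets for the 25 tested members, with 95% intervals from limma, in sons of LF-fed dams (light) and of HF-fed dams (dark). Fbp2 and Pfkfb2 lie to the right, Slc2a1 to the left, and most other members lie near 0.

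Unlike Eno3, the glycolytic enzymes Gapdh, Tpi1, Ldha and Pfkm differed little between the post-weaning diets. Averaged over the dams, Gapdh differed by -0.041 log2 (95% interval -0.097 to 0.015), Tpi1 by 0.0018 (-0.066 to 0.069), and Ldha, the muscle-type lactate dehydrogenase subunit, by -0.032 (-0.095 to 0.030). Pfkm, the muscle phosphofructokinase-1 that Pfkfb2's product activates, differed by -0.051 (-0.13 to 0.030). All 4 intervals lie within a change of the size measured for Slc2a1. Dimmer Pfkm probes gave -0.075 ± 0.0666 (limma adjusted p = 0.526) and -0.11 ± 0.0515 (limma adjusted p = 0.182). Those of Gapdh and Tpi1 lay between -0.058 and -0.0065.

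Hk2, the insulin-responsive hexokinase, differed by -0.050 (95% interval -0.12 to 0.023) and Hk1 by 0.026 (-0.080 to 0.13). Aldoa, the muscle aldolase, was at 0.082 (0.010 to 0.15, limma adjusted p = 0.145), and Pkm2, the probe's name for pyruvate kinase Pkm, at 0.079 (-0.013 to 0.17). Pfkl and Pfkp, the liver and platelet phosphofructokinases, were at 0.054 and 0.067 and Pgam2, the muscle phosphoglycerate mutase, at 0.11 (-0.038 to 0.25). None of these passed the test.

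Of the remaining glycogen members none passed. Gys1, the muscle glycogen synthase, differed by 0.023 (95% interval -0.049 to 0.094). A dimmer Gys1 probe gave 0.068 ± 0.0355 (limma adjusted p = 0.239). On that probe the difference was -0.012 in sons of LF-fed dams and 0.15 ± 0.0498 (limma adjusted p = 0.257) in sons of HF-fed dams. The phosphorylases Pygm and Pygb, which release glucose phosphate from glycogen, differed by -0.012 (-0.14 to 0.12) and -0.021 (-0.11 to 0.070). Gyg, the glycogenin that primes new glycogen, gave 0.18 (0.0042 to 0.35, limma adjusted p = 0.198) on its brighter probe and -0.013 (limma adjusted p = 0.908) on a second one, so its probes disagreed.

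Ppp1r3c, the subunit that brings protein phosphatase 1 to glycogen, showed opposite differences in the pairs. Its intensity ran from 1960 to 2772 in LF_LF with a median of 2240, and from 1986 to 3279 in LF_HF with a median of 2795. In HF_LF it ran from 1638 to 3250 with a median of 2339, and in HF_HF from 1852 to 2628 with a median of 2153. The LF_HF hearts had the highest median, and all 4 groups overlapped. The difference was 0.22 ± 0.0841 in sons of LF-fed dams (limma adjusted p = 0.135) and -0.10 ± 0.0974 in sons of HF-fed dams (limma adjusted p = 0.912). Tested directly, the 2 differences were apart by -0.33 ± 0.133, with an unadjusted p of 0.0183 in the limma fit and an adjusted p of 0.943.

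**Figure D3:**
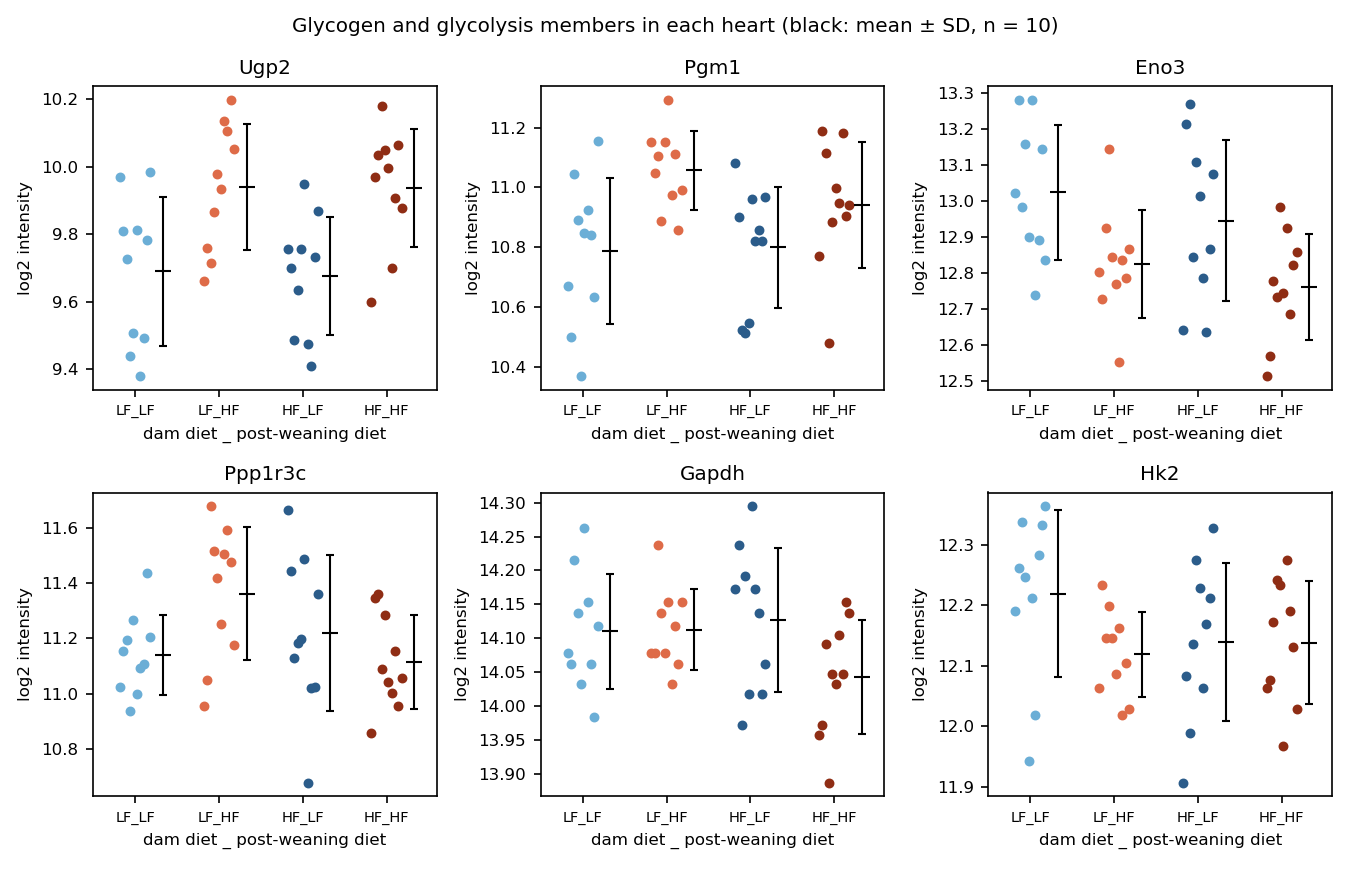
Log2 intensity of Ugp2, Pgm1, Eno3, Ppp1r3c, Gapdh and Hk2 in each of the 40 hearts, by dam diet and post-weaning diet, with the mean ± SD of 10 in black; each panel has its own axis. Ugp2 and Pgm1 lie higher and Eno3 lower in HF-fed hearts, Ppp1r3c has its highest median in LF_HF, and the groups overlap in every panel.

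The dam's diet moved no member past the threshold. In LF-fed sons 0 of 25 members passed by limma (0 at an unadjusted p under 0.05), beside 0.0395% of all probes (4.02% unadjusted), and in HF-fed sons 0 of 25 (2 at an unadjusted p under 0.05), beside 0% of all probes (11.3% unadjusted). The 2 were Ppp1r3c, lower by -0.25 ± 0.0867 in sons of HF-fed dams (unadjusted p = 0.00896, limma adjusted p = 0.315; 10 of 10 hearts below the LF_HF mean), and Pgam2, at -0.15 ± 0.07 (unadjusted p = 0.0465, limma adjusted p = 0.432). The atrial markers lay higher in sons of HF-fed dams, by a median of 1.36 log2 over the 7 tested in LF-fed sons and 1.29 in HF-fed sons (7 of 7 above 0 in both, 0 passing the limma test, 1 and 2 at an unadjusted p under 0.05), with median atrial scores of -2.26 in LF_LF and -0.86 in LF_HF against 0.86 in HF_LF and 0.22 in HF_HF. Pgam2 fell with that score within groups (slope -0.081 ± 0.019, limma adjusted p = 0.00294), and its part in the maternal difference of Pgam2 was not tested. Averaged over the post-weaning diets, 0 of 25 passed (0 unadjusted), beside 0.388% of all probes (9.89% unadjusted), with a median of -0.030 over the 25 members and -0.00085 over all probes. In the same fit 0 of the 7 atrial markers passed. All 7 were higher at an unadjusted limma p under 0.05, with a median of 1.325 log2.

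For Fbp2 the maternal effect was -0.16 ± 0.115 in LF-fed sons (95% interval -0.40 to 0.080, limma adjusted p = 0.996) and -0.064 ± 0.0738 in HF-fed sons (-0.22 to 0.089, limma adjusted p = 0.765). Averaged over the post-weaning diets it was -0.11 ± 0.0703 (-0.25 to 0.031), so a fall of up to that bound is not excluded. The interval leaves out a change as large as that between post-weaning diets, but it treats sons of a cage as independent. Sons of each dam diet came from only 6 cages, none with both dam diets, so the maternal intervals may be too narrow. With the atrial score as a covariate the averaged value for Fbp2 was -0.044 (limma adjusted p = 0.994). For Pfkfb2 the averaged maternal effect was 0.051 (95% interval -0.060 to 0.16) and for Slc2a1 0.10 (-0.0030 to 0.20). These comparisons use the same 40 hearts as those of the post-weaning diet.

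**Figure D4:**
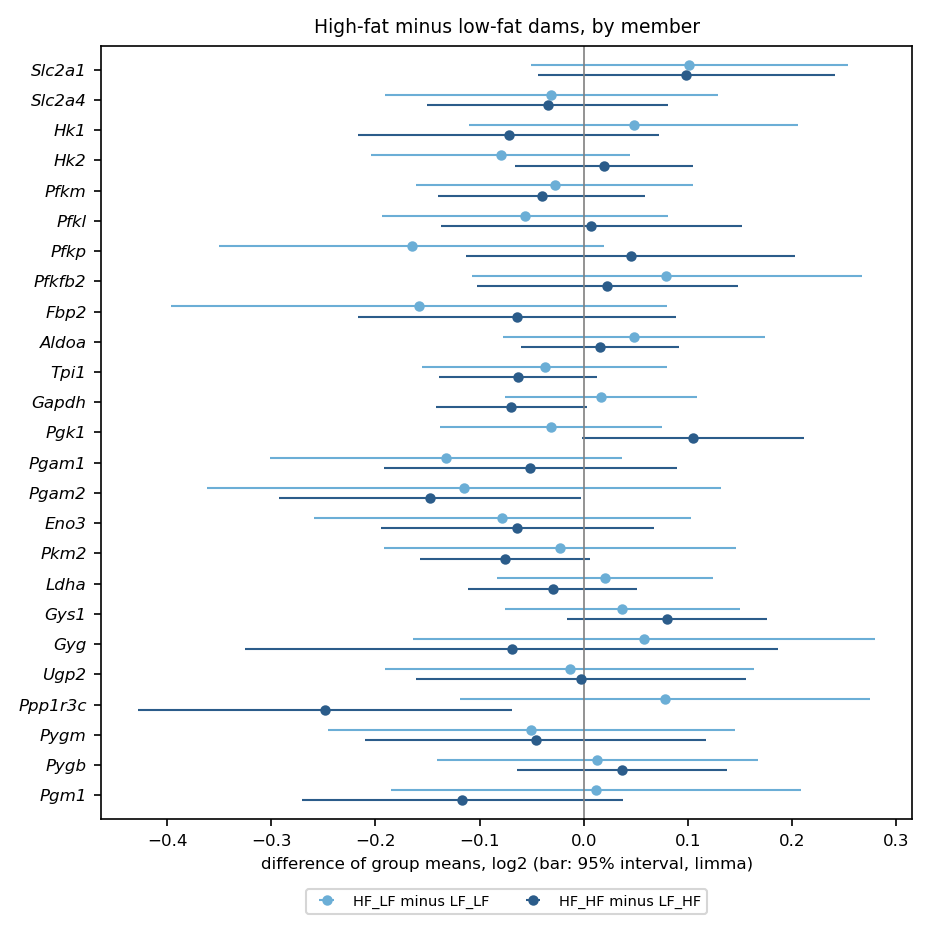
Difference between hearts of sons of HF-fed and LF-fed dams for the 25 tested members, with 95% intervals from limma, in LF-fed sons (light) and HF-fed sons (dark). No member passed the adjusted test; Ppp1r3c in HF-fed sons, at -0.25, lies farthest from 0.

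Whether the post-weaning effect depended on the dam was tested as the difference of the 2 effects. No member passed by limma (0 of 25, 1 at an unadjusted p under 0.05, which was Ppp1r3c), beside 0% of all probes (3.41% unadjusted). The difference was 0.094 ± 0.141 for Fbp2 (95% interval -0.19 to 0.38, limma adjusted p = 0.943), -0.057 ± 0.11 for Pfkfb2 (-0.28 to 0.17) and -0.0030 ± 0.102 for Slc2a1 (-0.21 to 0.20).

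Within groups, hearts with more Fbp2 also had more Eno3, Pygm, Pgam2 and Pfkm, the 4 of 24 members that passed on both measures of correlation below. Correlations of Fbp2 with probes outside the members were not computed, so the 4 of 24 has no share over all probes beside it. Whether such correlations are more common among the members than over all probes was not tested. Over the 40 hearts, taken as deviations from their group means, Fbp2 was correlated most with Eno3 (Pearson r = 0.565, permutation p = 0.00058, adjusted 0.0139 over 24 members; Spearman rho = 0.541, permutation p = 0.00085, adjusted 0.0139). Next came Pygm, the muscle phosphorylase (r = 0.503, permutation p = 0.00155, adjusted 0.0186; rho = 0.508, permutation p = 0.00174, adjusted 0.0139), and Pgam2 (r = 0.491, permutation p = 0.00354, adjusted 0.0212; rho = 0.492, permutation p = 0.00291, adjusted 0.0175). Pfkm followed at r = 0.472 (permutation p = 0.00343, adjusted 0.0212; rho = 0.523, permutation p = 0.00152, adjusted 0.0139). Slc2a4 passed by Pearson's r alone (r = 0.432, permutation p = 0.0103, adjusted 0.0492; rho = 0.338, permutation p = 0.045, adjusted 0.154), and Aldoa and Gys1, also muscle forms, by neither (r = 0.369, adjusted permutation p = 0.107, and r = 0.239, adjusted permutation p = 0.311). Eno3 thus went with Fbp2 from heart to heart within the groups, while between the post-weaning diets Fbp2 was higher and Eno3 lower.

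Without the 2 hearts farthest from the median of Fbp2 (animals 109 and 55), r was 0.546 for Eno3, 0.568 for Pygm, 0.552 for Pgam2 and 0.512 for Pfkm. In the larger set of arrays r was 0.673, 0.55, 0.483 and 0.497, and in the smaller one 0.409, 0.497, 0.546 and 0.49. Within groups Pygm fell with the atrial score (slope -0.060 ± 0.0179 log2 per unit, limma adjusted p = 0.0199), as did Pgam2 (slope -0.081 ± 0.019, limma adjusted p = 0.00294), and the slope of Fbp2 was -0.055 ± 0.0208 (limma adjusted p = 0.0754). With the atrial score taken out, r with Eno3, Pygm, Pgam2 and Pfkm was 0.496, 0.387, 0.351 and 0.4. Eno3 (slope -0.075 ± 0.024, limma adjusted p = 0.0245), Pgam2 (-0.13 ± 0.0276, limma adjusted p = 0.000752) and Pfkm (-0.049 ± 0.0179, limma adjusted p = 0.0473) also fell with the adipocyte score, as Fbp2 did. With that score taken out, r was 0.467, 0.411, 0.334 and 0.363. The permutations treat hearts of a cage as independent; as deviations from the mean of each of the 17 sets of hearts of 1 group in 1 cage, r was 0.657, 0.394, 0.476 and 0.373.

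Over 10 hearts each, Eno3 and Fbp2 gave r = 0.907 in LF_LF and 0.318 in LF_HF, and r = 0.47 in HF_LF and 0.458 in HF_HF. Pfkm gave r = 0.927 in LF_LF, against 0.25 in LF_HF, 0.17 in HF_LF and 0.177 in HF_HF. Pygm gave r = 0.0603 for HF_LF but 0.714 for LF_LF, 0.813 for LF_HF and 0.682 for HF_HF, and Pgam2 0.737 for LF_LF, 0.383 for LF_HF, 0.254 for HF_LF and 0.588 for HF_HF. These differences between groups were not tested.

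Pfkfb2 (r = 0.278, permutation p = 0.118; rho = 0.306, permutation p = 0.0711) and Slc2a1 (r = -0.217, permutation p = 0.201; rho = -0.302, permutation p = 0.0711), which differ between the diets as Fbp2 does or opposite to it, did not pass within the groups. Gapdh gave r = 0.0416 and Ugp2 r = 0.038, and the lowest value was that of Ldha (r = -0.355, permutation p = 0.0387, adjusted 0.107; rho = -0.262, permutation p = 0.126).

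**Figure D5:**
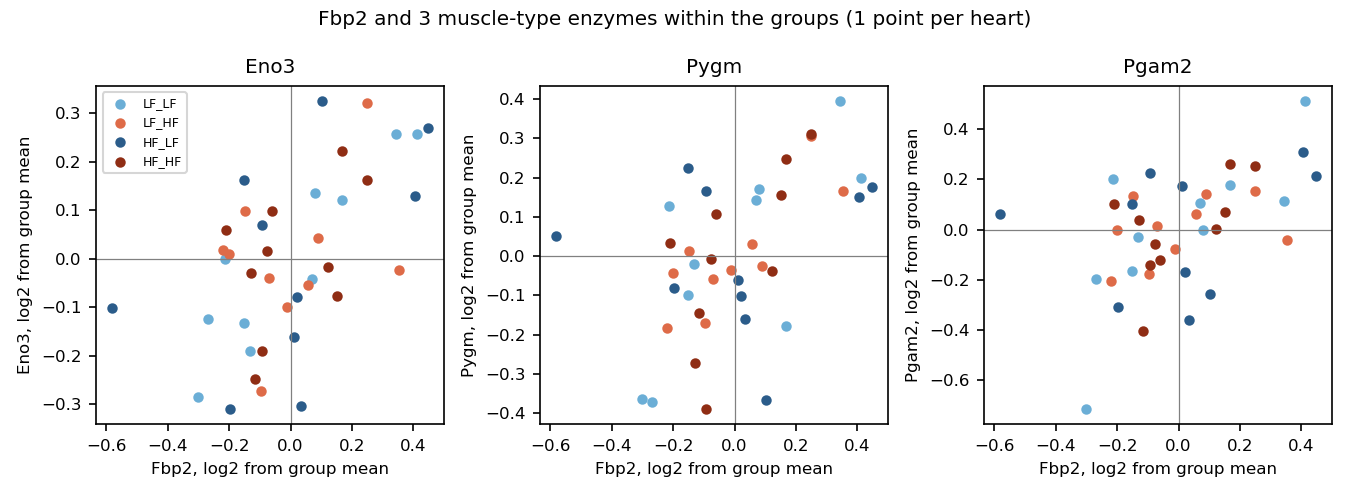
Log2 deviation of Eno3, Pygm and Pgam2 from the group mean (vertical) against that of Fbp2 (horizontal), 1 point per heart, coloured by group. The points rise from lower left to upper right, with r = 0.565 for Eno3, 0.503 for Pygm and 0.491 for Pgam2 over 40 hearts.

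No member's slope on the animals' fasting glucose or body weight within groups passed the threshold. The weight used is the larger of 2 in the labels, which call it the weaning weight; it lies far above the weight at 3 weeks, so its date is unsure. By limma 0 of 25 members passed on glucose (0 at an unadjusted p under 0.05) and 0 of 25 on the later weight (2 unadjusted), beside 0% of all probes on each (2.64% and 6.26% unadjusted). For Fbp2 the slope on glucose was 0.00094 ± 0.00111 log2 per mg/dl and that on weight -0.0062 ± 0.0228 log2 per g. The 2 at an unadjusted p under 0.05 on weight were Slc2a1, at -0.033 ± 0.0157 per g (unadjusted p = 0.0441, limma adjusted p = 0.784), and Gapdh, at 0.021 ± 0.00833 (unadjusted p = 0.0155, limma adjusted p = 0.784).

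Among other genes of these pathways, 0 of 8 tested genes of glycolysis and gluconeogenesis and 0 of 5 of the pentose phosphate pathway passed between the post-weaning diets in either pair or on average. Of 13 further glycogen genes, 2 fell in sons of LF-fed dams, 0 in sons of HF-fed dams and 2 on average. Over all probes 1.43%, 0.38% and 3.96% passed as lower. The genes that fell were all subunits of phosphorylase kinase, which switches phosphorylase on. Phka1 and Phkb, also tested subunits of this kinase, passed in neither pair nor on average. Phkg1, the muscle catalytic subunit, fell in sons of LF-fed dams (-0.38 ± 0.0938, limma adjusted p = 0.0314) and on average (-0.37 ± 0.0753, limma adjusted p = 0.00137). Phkg2 fell in sons of LF-fed dams (-0.16 ± 0.0435, limma adjusted p = 0.0481) and Phka2 on average (-0.14 ± 0.0379, limma adjusted p = 0.0186).

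Of 10 tested genes that control glucose uptake and glycolysis, Tigar, a phosphatase that removes fructose-2,6-bisphosphate, rose on average (0.19 ± 0.047, limma adjusted p = 0.00794) and in neither pair alone. Genes of the hypoxia response outside glycolysis rose in 3 of 9 in sons of LF-fed dams, 2 of 9 in sons of HF-fed dams and 3 of 9 on average, beside 1.29%, 0.482% and 3.53% of all probes, and none passed as lower. Ddit4, a stress-induced inhibitor of mTORC1, was at -0.56 ± 0.139 in sons of HF-fed dams (unadjusted p = 0.000564, limma adjusted p = 0.0599) and -0.41 ± 0.137 on average (unadjusted p = 0.00506, limma adjusted p = 0.0598). Egln3, the prolyl hydroxylase that marks hypoxia-inducible factors for removal, rose by 0.55 ± 0.0916 (limma adjusted p = 0.00327) and 0.37 ± 0.0852 (limma adjusted p = 0.0347), and Vegfa, the vessel growth factor, by 0.41 ± 0.0655 (limma adjusted p = 0.00245) and 0.26 ± 0.0568 (limma adjusted p = 0.0235). P4ha1, a collagen hydroxylase, rose in sons of LF-fed dams (0.18 ± 0.0473, limma adjusted p = 0.0429) and on average. Slc2a1, often listed with that response, fell in both pairs.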

How the data were processed

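RNA of 40 mouse hearts was hybridised to Illumina MouseRef-8 bead arrays. The deposited values are intensities that the authors quantile-normalised over the 40 arrays. The submitters' processing notes name BeadStudio, without a version. Sorted columns differed by at most 1, so all arrays share 1 distribution and a shift of all probes cannot be seen. Arrays have no read depth, and the number of arrays limits the precision. Detection p-values were not used. Of 25697 probes, 23978 had 1 gene symbol and 1719 none. Log2 intensity of the 12645 probes above their array's median on at least 20 arrays was tested with limma 3.58.1 in R 4.3.3 (lmFit, eBayes with a variance trend) at a false discovery rate of 5% by Benjamini-Hochberg over all these probes. Each pair was fitted on its own 20 arrays, and averages, the interaction and slopes on all 40. Named genes were all members, and other pathway genes that passed. Phka1, Phkb and Ddit4, which did not pass, were named beside them. Members, lists and tests were chosen with earlier results of these data known. Correlations used 100000 permutations within groups, two-sided (Python 3.11.15). On simulated data for sons of LF-fed dams (12645 probes, 200 changed), 38.4% of changes of 0.2 log2, 87% of 0.4 and 97.4% of 0.8 were found, with 4.93% false calls. Alternatives changed the filter, background, normalisation, variance model, probe choice, cages, array sets, tissue scores and animals.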

Additional observations from a re-analysis of the deposited data

Results flagged for a closer look

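Of 100 sets of 10 hearts (25 members in 4 groups), 5 held a heart whose gap to the nearest other took a larger share of the group's range than Dixon's 95% critical value allows, and chance gives about 1 in 20. The lowest LF_LF heart, animal 101, was at 134.5 for Hk1 (next heart 185.6) and at 3075 for Pkm2 (next 3868), and its liver score was 3.89. The lowest HF_LF heart for Pfkp, animal 177, was at 184.8 (next 282.0), and its adipocyte score was 3.38. The highest LF_HF heart for the dim Pgk1 probe, animal 99, was at 91.0 (next 81.0). The lowest HF_HF heart for Pygb, animal 182, was at 2798 (next 3149), and its liver score was 2.26. The part of tissue content in these values was not tested, and none of these genes passed a comparison.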

How the results depend on the processing

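The number of members called (Fbp2 left out for the post-weaning diet) was 2, 2 and 5 for the post-weaning effect in sons of LF-fed dams, in sons of HF-fed dams and on average. On cage means it was 0, 0 and 2; in the cages with both diets 0, 0 and 1; within the larger set of arrays 0, 1 and 3 and within the smaller 0, 0 and 0; after removing the 11 hearts that carried signal from other tissues 0, 0 and 2. Cage means keep all arrays but average the hearts of 1 group in 1 cage, which no longer counts cage mates of 1 group as independent. Brothers of 1 cage on different diets still enter as separate values. The other settings use fewer arrays. What part of the lost calls comes from either was not tested. Without the hearts with an adipocyte score over 1, chosen after seeing the data, it was 1 and 0 in the pairs. The other filters, normalisations, variance models, probe choices and covariates stayed within 1.5 times the count: of 156 counts under alternatives 139 did and 17 did not. Leaving out 1 animal gave 2 to 3, 2 to 3 and 4 to 5, and 0 to 0 for the maternal effects, the interaction and both slopes. No called member changed sign under an alternative or on leaving out 1 animal; differences near 0, such as the interaction of Slc2a1, did on leaving out 1 animal. Pgm1's averaged call was kept under 8 of 18 alternatives and lost under 10, with limma adjusted p up to 0.628. The losses include no filter on dim probes (limma adjusted p = 0.0617) and array weights (limma adjusted p = 0.0605). No paired analysis was possible because the replicate numbers only count animals in accession order and tie none to another; the cages with both diets, fitted with the cage as a term, are the nearest to one. Changes of 0.2 log2 were mostly missed in the simulated pairs, and dim members (Pgk1, Gys1) are compressed towards the background.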
